A study of Mus musculus with 24 samples.

Results

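The glycolysis and hypoxia response genes are 36 named mouse genes, taken by symbol and read in sorted endothelial cells of normal hindbrain and of 2 medulloblastoma models. A gene was measured where the array had a probe set that carries its symbol and no other, and of several such probe sets the one with the highest mean across the 24 arrays was used. In this way 31 of the 36 genes were measured, among 22180 genes tested in all. They comprised 14 of 17 glycolytic enzymes, 4 of 4 regulators of glucose entry and glycolysis, 9 of 11 other hypoxia targets and 4 of 4 genes of oxygen sensing. No value was used for Gpi1 and Eno1, which had no probe set in the annotation, or for Aldoa, Bnip3l and Ankrd37, whose probe sets also carry another symbol. Gapdh had 3 probe sets of its own and 8 shared with near-identical copies, so its value is uncertain as that of 1 gene.

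Medulloblastoma is a tumour of the cerebellum and brainstem region. The wild-type group came from adult mouse hindbrain, the Shh group from tumours of mice with the Ptch+/- and Ink4c-/- alleles, and the Wnt group from tumours of mice with the Blbp-Cre transgene, a Ctnnb1 +/Exon3 flox allele, Trp53 flox/flox and Pik3ca +/flox. The strain background was mixed in all 3 groups. Blbp-Cre, per its name, drives recombination from the promoter of a gene of neural progenitors and glia, while no Cre is named for the Shh model. Papain-dissociated cells were taken with magnetic beads and antibodies to Cd105 and Cd144, which are encoded by Eng and Cdh5. Each group held 8 arrays that the labels call biological replicates.

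All values are on the log2 scale, so a difference of 1 is a factor of 2. The defining markers of endothelium were present in every group: the mean of 16 of them was 11.43 ± 0.11 (SD, n = 8) in hindbrain, while the Shh arrays had 11.32 ± 0.20 and the Wnt arrays 10.52 ± 0.47. In Wnt arrays 15 of the 16 fell against hindbrain, with array means from 9.77 to 11.02 against 11.22 to 11.59, and in Shh arrays 3 fell and 1 rose. In such sorted pools, fewer endothelial cells and less RNA of these genes per cell cannot be told apart. Relative to the endothelial marker mean, the median over all genes moved to 0.89 for Wnt minus hindbrain, 0.81 for Wnt minus Shh and 0.09 for Shh minus hindbrain, so each Wnt difference is also given on that scale where its direction turns. The markers of the stress response to tissue dissociation, 12 immediate early and heat shock genes, fell in both tumour groups, 12 of 12 in each, with array means from 11.84 to 12.61 in the hindbrain arrays, 10.47 to 11.33 in those of Shh and 9.94 to 11.71 in those of Wnt. Microglia and macrophage markers fell as well, 13 of 13 in Wnt and 11 of 13 in Shh, with array means from 10.13 to 11.11 in the hindbrain arrays, 7.85 to 10.44 in those of Shh and 7.48 to 9.26 in those of Wnt. The part of these 2 marker lists in the differences of the glycolysis and hypoxia genes was not tested.

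Glycolysis splits glucose into pyruvate, which becomes lactate or enters the mitochondria, and endothelial cells of the brain and elsewhere draw much of their ATP from it. When oxygen is scarce, the prolyl hydroxylases encoded by Egln1 and Egln3 no longer mark the HIF alpha subunits, encoded by Hif1a and Epas1, for degradation. The stabilised subunits pair with the Arnt protein and bind DNA at short elements, among them ACGTG-containing ones. They raise glycolytic enzymes, glucose transporters and a wider set of targets such as Adm, Car9 and Bnip3. HIF activity is set mainly at the protein level, which arrays do not read.

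To show 1 form of the letters that HIF is known to bind, the 250 bases before the annotated start were searched. The search was for ACGTG or its reverse complement CACGT, with CACGTG, which holds both, counted as 1 stretch. RefSeq promoters (GRCm38.p6) were listed for 32 of the 36 genes. Of these 32 genes, 18 held the stretch in at least 1 promoter, or 56.2%, against 18.5% of 27025 genes in the table. Of their 49 promoters, 22 or 44.9% held the stretch, against 16.6% of 32851 promoters in the table. Known hypoxia targets were put in the list, so a higher share than over all genes is no result of these data. The listed genes also have more promoters per gene than the table. The stretch was found in 7 of 17 glycolytic enzymes, 1 of 3 regulators, 7 of 9 other targets and 3 of 3 oxygen sensing genes with an entry. A few promoters are printed from 5′ to 3′ with these letters in capitals, because the genes differ in how they moved: the prolyl hydroxylase subunit pair P4ha1 and P4ha2, the enzymes Pgk1, Ldha and Hk2, and the targets Egln3 and Adm, the last of which holds no such stretch.
P4ha1, chr10:59323046-59323295, plus strand: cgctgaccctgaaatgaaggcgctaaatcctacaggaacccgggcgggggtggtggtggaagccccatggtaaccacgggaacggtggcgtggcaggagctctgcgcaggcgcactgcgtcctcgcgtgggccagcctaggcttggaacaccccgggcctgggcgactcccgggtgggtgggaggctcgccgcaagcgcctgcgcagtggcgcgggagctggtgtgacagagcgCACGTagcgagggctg
P4ha2, chr11:54100674-54100923, plus strand: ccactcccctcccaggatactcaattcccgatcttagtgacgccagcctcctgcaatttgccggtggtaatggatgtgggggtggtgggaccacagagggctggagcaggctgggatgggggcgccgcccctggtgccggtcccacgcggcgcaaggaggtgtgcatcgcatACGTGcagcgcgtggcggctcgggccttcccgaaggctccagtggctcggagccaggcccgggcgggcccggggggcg
Pgk1, chrX:106186850-106187099, plus strand: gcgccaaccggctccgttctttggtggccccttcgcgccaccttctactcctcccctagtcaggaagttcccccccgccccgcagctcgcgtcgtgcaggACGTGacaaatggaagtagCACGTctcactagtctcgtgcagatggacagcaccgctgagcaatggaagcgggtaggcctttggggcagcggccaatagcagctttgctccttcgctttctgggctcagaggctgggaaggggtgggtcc
Ldha, chr7:46845554-46845803, plus strand: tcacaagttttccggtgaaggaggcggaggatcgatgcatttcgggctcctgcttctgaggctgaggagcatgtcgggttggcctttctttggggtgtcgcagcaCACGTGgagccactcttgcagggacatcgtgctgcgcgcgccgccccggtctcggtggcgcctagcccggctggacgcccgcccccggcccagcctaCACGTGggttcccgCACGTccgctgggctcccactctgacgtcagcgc
Hk2, chr6:82774455-82774704, minus strand: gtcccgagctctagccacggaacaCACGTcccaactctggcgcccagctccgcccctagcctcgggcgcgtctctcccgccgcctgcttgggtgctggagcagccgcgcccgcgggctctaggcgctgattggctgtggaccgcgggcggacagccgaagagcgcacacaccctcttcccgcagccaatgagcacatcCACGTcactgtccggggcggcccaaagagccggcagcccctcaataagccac
Egln3, chr12:54203875-54204124, minus strand: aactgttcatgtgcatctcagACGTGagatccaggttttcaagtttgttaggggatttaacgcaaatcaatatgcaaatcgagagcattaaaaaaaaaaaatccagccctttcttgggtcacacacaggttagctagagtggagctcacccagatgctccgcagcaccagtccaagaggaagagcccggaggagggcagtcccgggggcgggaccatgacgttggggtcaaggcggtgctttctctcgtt
Adm, chr7:110627407-110627656, plus strand: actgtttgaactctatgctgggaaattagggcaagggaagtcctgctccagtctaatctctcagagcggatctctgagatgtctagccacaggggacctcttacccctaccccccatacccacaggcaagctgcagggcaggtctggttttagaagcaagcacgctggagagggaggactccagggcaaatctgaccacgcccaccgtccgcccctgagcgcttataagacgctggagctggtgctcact
Counted back from the start, with the last base printed at -1, the stretches begin at -16 in P4ha1, -78 in P4ha2, -150 and -131 in Pgk1, -145, -48 and -34 in Ldha, -226 and -52 in Hk2 and -229 in Egln3. CACGTG, which other factors also bind, was in 6.02% of all promoters. A match describes these letters only and says nothing of binding in these cells. A missing match covers this window and these letters alone, and the close variant GCGTG was not searched for.

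The comparison of each tumour group with hindbrain asks how the programme differs between the vessels of normal brain and those of a tumour. Called genes of the set moved in both directions in each tumour. In Wnt minus hindbrain, 7 of 31 rose, where 23.2% of all genes were called higher, and 12 fell, where 22% were called lower (limma, adjusted p under 0.05). In Shh minus hindbrain, 7 rose and 12 fell, where 18.9% of all genes were called in each direction. The glycolytic enzymes are given apart from the remaining genes. Of 14 enzymes, 5 rose and 3 fell in each tumour, with medians of 0.18 in Wnt and 0.26 in Shh, although relative to the endothelial marker mean 12 rose and none fell in Wnt and 2 rose and none fell in Shh. Of the other 17 genes, 2 rose and 9 fell in each tumour, with medians of -0.32 and -0.33, although on that relative scale 14 rose and 2 fell in Wnt and 2 rose and 4 fell in Shh. The median over all 22180 genes was -0.02 in both. Relative to the endothelial marker mean, 19614 of all 22180 genes were called higher and 691 lower in Wnt. In Shh 2463 were called higher and 1219 lower on that scale. The counts of each gene list on the relative scale are to be read beside these. The same hindbrain arrays serve both comparisons, so their values are given side by side and not as support for each other.

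**Figure D1:**
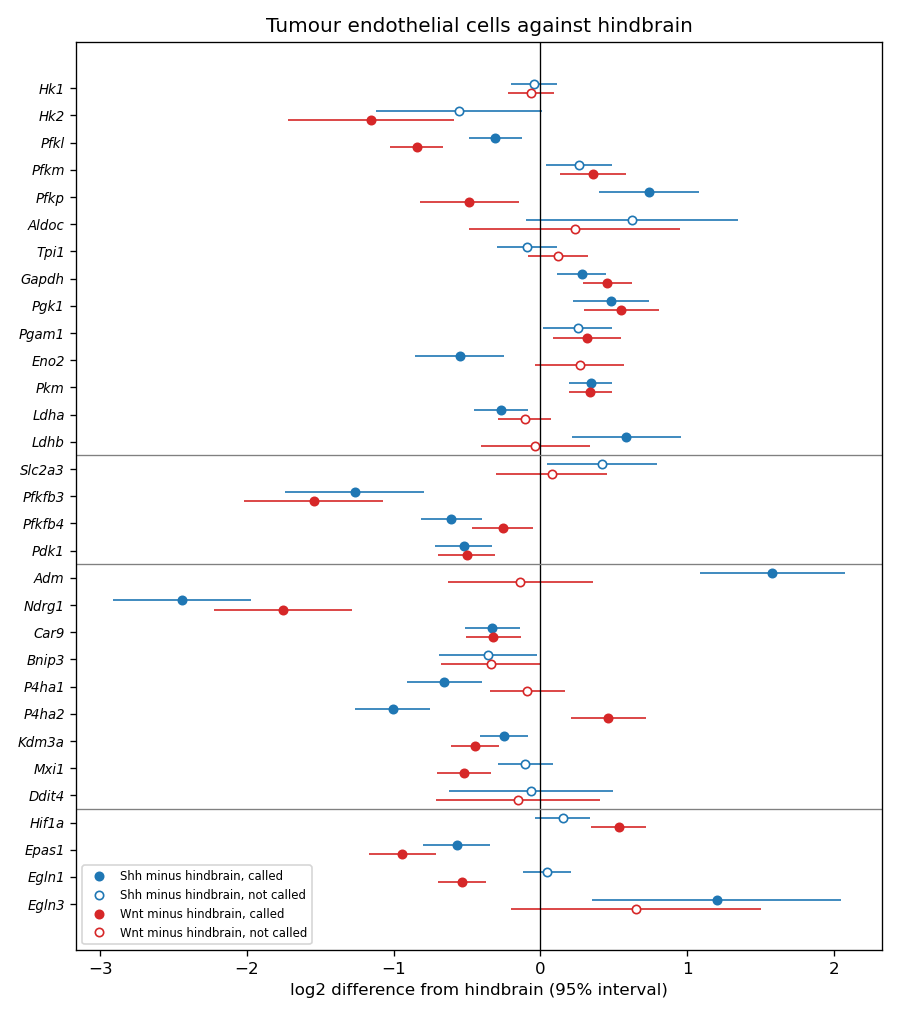
Log2 difference from hindbrain (horizontal axis) of the 31 measured genes in Shh (blue) and Wnt (red) tumour endothelial cells, with 95% intervals. Filled points are called at an adjusted p under 0.05 by limma, and lines part enzymes, regulators, other hypoxia targets and oxygen sensing. Ndrg1 lies lowest in both, and Pfkp and P4ha2 lie on opposite sides of 0, although relative to the endothelial marker mean Pfkp is higher in both.

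Hk2, the inducible hexokinase that traps glucose in the cell, had a lowest, median and highest value of 7.77, 8.57 and 9.71 in hindbrain. In Shh arrays these were 7.18, 7.93 and 8.99, and in Wnt arrays 6.62, 7.45 and 8.03. The Wnt arrays overlapped the lower hindbrain arrays only, and the Shh arrays lay in between. Hk2 fell by 1.15 ± 0.27 (SE) in Wnt against hindbrain (adjusted p = 0.0011), or 2.23-fold. Its difference was -2.21 with the endothelial marker mean as covariate and -0.24 relative to that mean, which ends the call. In Shh its difference was -0.55 (95% interval -1.12 to 0.01, adjusted p = 0.117), and it passed the test at -0.69 without Shh array 2 and at -0.68 with the endothelial covariate. Hk1, the constitutive hexokinase, differed by -0.06 in Wnt and -0.04 in Shh, with neither passing. Relative to the endothelial marker mean its Wnt value turned to 0.85 and was called.

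The 3 phosphofructokinase subunits, which carry the first committed step of glycolysis, moved apart. Pfkl, the liver type, fell in both tumours, by 0.84 ± 0.09 in Wnt (adjusted p = 1.6e-08) and by 0.31 ± 0.09 in Shh (adjusted p = 0.00741), and neither tumour group overlapped hindbrain. Relative to the endothelial marker mean its Wnt value turned to 0.07 and was not called. Pfkp, the platelet type, had a lowest, median and highest value of 8.48, 8.82 and 9.05 in hindbrain, 9.26, 9.39 and 10.16 in Shh and 7.77, 8.14 and 9.01 in Wnt. Every Shh array lay above every hindbrain and every Wnt array. Pfkp rose by 0.74 ± 0.16 in Shh (adjusted p = 0.00086) and fell by 0.48 ± 0.16 in Wnt (adjusted p = 0.0181). The fall in Wnt was lost without Wnt arrays 1 and 8, which had the lowest endothelial marker means (-0.33, adjusted p = 0.116), and it turned to 0.43 relative to the endothelial marker mean. Pfkm, the muscle type, rose by 0.36 in Wnt, a call that was lost with the arrays shifted to 1 common median (0.24, adjusted p = 0.0594) and with the endothelial marker mean as a covariate (0.33, adjusted p = 0.235). In Shh it differed by 0.27 and did not pass, but it did with dim genes left out, with array weights and without Shh array 2 (0.31, adjusted p = 0.0314). In the Shh arrays 8 of 9 markers of granule neuron precursors, the cell of origin of Shh medulloblastoma, rose as well, with array means from 7.55 to 9.23 against 6.52 to 6.76 in hindbrain, and their part in the Pfkp value was not tested.

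The enzymes of the second stage, which yield ATP, hold the genes that rose in both tumours. Gapdh rose by 0.46 ± 0.08 in Wnt and 0.28 ± 0.08 in Shh. Pgk1, which makes the first ATP of the pathway, rose by 0.55 ± 0.12 and 0.48 ± 0.12. Pkm, the pyruvate kinase, rose by 0.34 ± 0.07 in both. The Wnt arrays did not overlap hindbrain for any of these 3 genes, and the Shh arrays did not for Pkm. With the endothelial marker mean as a covariate none of the 3 passed in Wnt, whereas all of them passed in Shh. Relative to that mean all 3 were called higher in Wnt. In Shh Pgk1 was still called on that scale, but Gapdh (limma, 0.39, adjusted p = 0.185) and Pkm (0.45, adjusted p = 0.104) were not. Pgam1, a phosphoglycerate mutase, rose by 0.32 in Wnt, a call that was lost when its 2 probe sets were averaged (0.21, adjusted p = 0.113), with the arrays shifted to 1 common median and with that covariate. Tpi1 and Aldoc were called in no comparison, although without Shh array 2 Tpi1 was higher in Wnt than in Shh (limma, 0.29, adjusted p = 0.0077). Relative to the endothelial marker mean both were called higher in Wnt minus hindbrain (1.04 and 1.15). Tpi1 was also called higher in Wnt minus Shh on that scale (1.02).

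The next enzymes passed the threshold in Shh and not in Wnt. Eno2, the neuronal enolase, fell by 0.55 ± 0.15 in Shh and differed by 0.27 in Wnt. Ldhb, the heart type lactate dehydrogenase subunit, rose by 0.59 ± 0.18 in Shh and differed by -0.03 in Wnt. Ldha, the muscle type subunit and a textbook HIF target whose promoter is printed above with 3 stretches, fell by 0.27 ± 0.09 in Shh and differed by -0.11 in Wnt. The direct comparison of Wnt with Shh called Eno2 higher (0.82 ± 0.15) and Ldhb lower (-0.62 ± 0.18), but not Ldha (0.16, 95% interval -0.02 to 0.35). Relative to the endothelial marker mean none of these 3 enzymes passed in Shh, and all were called higher in Wnt (Eno2 1.18, Ldhb 0.88, Ldha 0.81). In Wnt minus Shh Eno2 was not called with that mean as a covariate (limma, 0.535, adjusted p = 0.0876). Relative to that mean Ldhb turned to 0.19 and was not called there, while Ldha was called at 0.97.

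Of the 4 regulators of glucose entry and glycolysis, 3 fell and none rose in each tumour, although relative to the endothelial marker mean 3 rose and 1 fell in Wnt and 1 fell in Shh. Of all genes, 22% were called lower in Wnt and 18.9% in Shh. On the relative scale 19614 of all 22180 genes were called higher in Wnt. Pfkfb3, whose product makes the fructose 2,6-bisphosphate that speeds phosphofructokinase and drives glycolysis in sprouting endothelium, had a lowest, median and highest value of 8.63, 9.36 and 10.20 in hindbrain. The values were 7.81, 8.17 and 8.87 in Shh and 7.49, 7.67 and 8.91 in Wnt. The highest tumour arrays overlapped the single lowest hindbrain array. Pfkfb3 fell by 1.55 ± 0.23 in Wnt (adjusted p = 3.87e-06) and by 1.27 ± 0.23 in Shh (adjusted p = 0.000103), and it was called lower in both under each alternative run. Pdk1, the kinase that keeps pyruvate out of the mitochondria, fell by 0.50 ± 0.09 in Wnt and 0.52 ± 0.09 in Shh. Its Wnt call was lost with the endothelial marker mean as a covariate (-0.36, adjusted p = 0.108), and the value turned to 0.41 relative to that mean. Pfkfb4, a paralogue of Pfkfb3, fell by 0.26 ± 0.10 in Wnt and 0.61 ± 0.10 in Shh. Its Wnt call was lost without Wnt array 4 (-0.24, adjusted p = 0.0667) and without arrays 1 and 8 (-0.27, adjusted p = 0.0605), and it turned to 0.66 relative to the endothelial marker mean. Slc2a3, a glucose transporter known best from neurons, differed by 0.08 in Wnt and 0.42 in Shh and was not called. The Shh value passed without Wnt array 4 (limma, adjusted p = 0.0279), with array weights and with the 2 groups fitted alone. Relative to the endothelial marker mean the Wnt value of Slc2a3 was 0.99 and called.

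**Figure D2:**
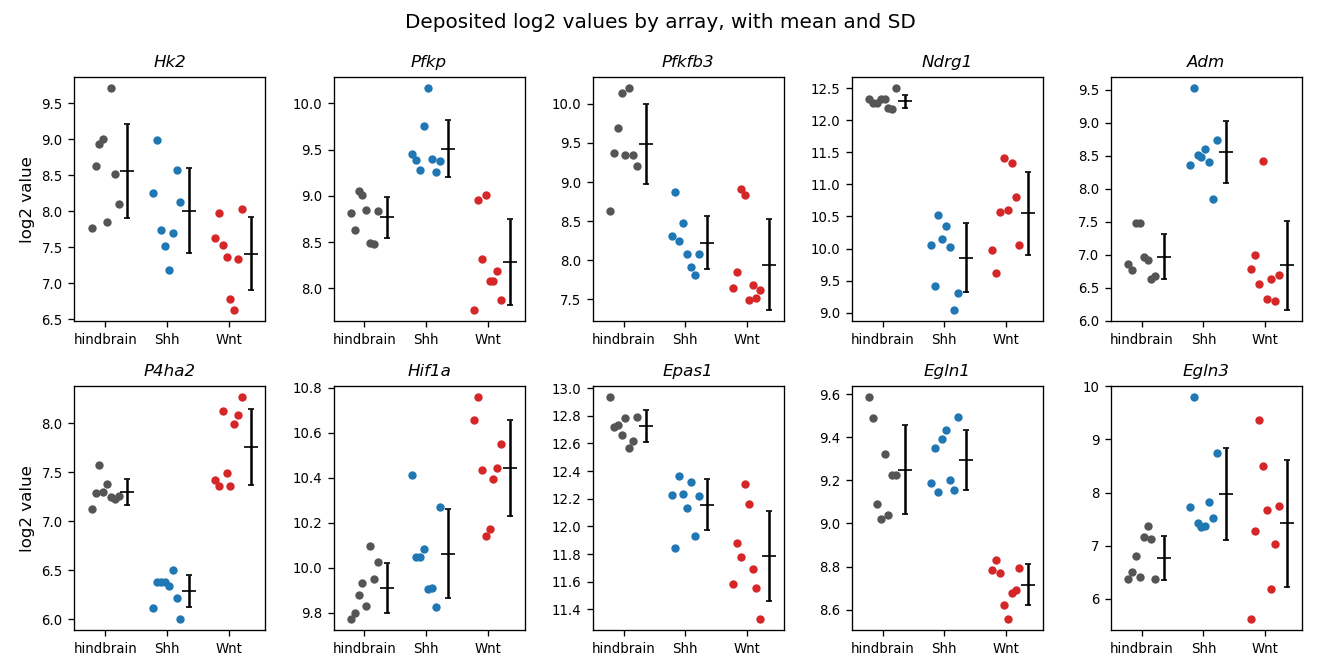
Deposited log2 values (vertical axes, each panel with its own range) of 10 genes in each of 8 arrays of hindbrain (grey), Shh (blue) and Wnt (red), with the mean and SD beside the points. Hindbrain Ndrg1 values sit between 12.17 and 12.50, above every tumour array, and Shh P4ha2 values sit below all others.

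Of the 9 other hypoxia targets, 1 rose and 4 fell in Wnt and 1 rose and 5 fell in Shh, although relative to the endothelial marker mean 8 rose and 1 fell in Wnt and 1 rose and 2 fell in Shh. Of all genes, 23.2% were called higher and 22% lower in Wnt, and 18.9% in each direction in Shh. On the relative scale 19614 of all 22180 genes were called higher in Wnt. Ndrg1 had the largest difference from hindbrain of the 31 genes in each tumour. It encodes a stress-responsive protein that is induced by hypoxia and is also abundant in myelinating cells. Its lowest, median and highest values were 12.17, 12.30 and 12.50 in hindbrain, 9.04, 10.04 and 10.52 in Shh and 9.63, 10.58 and 11.41 in Wnt. No tumour array reached the hindbrain range. Ndrg1 fell by 2.44 ± 0.23 in Shh (adjusted p = 9.44e-09), or 5.44-fold, and by 1.75 ± 0.23 in Wnt (adjusted p = 5.35e-07), or 3.37-fold. A second Ndrg1 probe set had group means of 9.31 for hindbrain, 6.97 for Shh and 7.27 for Wnt. With the endothelial marker mean as a covariate the Wnt fall was 0.83 and did not pass (adjusted p = 0.0521). Markers of oligodendrocytes, the myelinating cells, moved beside it: 6 of 10 fell in each tumour, while 1 rose in Wnt and 3 rose in Shh, and their array means ran from 6.80 to 7.59 in the hindbrain arrays, 6.43 to 7.24 in those of Shh and 6.13 to 6.36 in those of Wnt. Of these markers Ermn lay under 5.24, the 95th percentile of the ERCC control probe sets, in all 3 group means, and Mag did in both tumour means. The part of these markers in the Ndrg1 values was not tested.

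Adm, which encodes the vasodilator peptide adrenomedullin, was the target that rose in Shh. Its lowest, median and highest values were 6.63, 6.89 and 7.49 in hindbrain, 7.85, 8.49 and 9.52 in Shh and 6.29, 6.66 and 8.41 in Wnt. All Shh arrays lay above all hindbrain arrays, and of the Wnt arrays only array 4 reached the Shh range. Adm rose by 1.58 ± 0.24 in Shh (adjusted p = 1.19e-05) and by 1.45 without Shh array 2. In Wnt its difference from hindbrain was -0.14 (95% interval -0.63 to 0.36), which became -0.36 without Wnt array 4 and turned to 0.78 relative to the endothelial marker mean. Wnt minus Shh was -1.72 ± 0.24 (adjusted p = 3.22e-06).

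P4ha1 and P4ha2 encode alternative catalytic subunits of the collagen prolyl 4-hydroxylase. P4ha2 had a lowest, median and highest value of 7.12, 7.27 and 7.57 in hindbrain, 6.0, 6.36 and 6.5 in Shh and 7.36, 7.74 and 8.26 in Wnt. The Shh arrays stood clear below the other 2 groups, and the Wnt arrays overlapped the upper hindbrain range. P4ha2 fell by 1.01 ± 0.12 in Shh (adjusted p = 5.97e-07) and rose by 0.46 ± 0.12 in Wnt (adjusted p = 0.00321), a rise that was not called with the endothelial marker mean as a covariate (0.28, adjusted p = 0.393). The Wnt minus Shh difference of 1.47 ± 0.12 (adjusted p = 9.47e-10), or 2.77-fold, had the smallest p of the 31 genes in that comparison. P4ha1 fell by 0.65 ± 0.12 in Shh and differed by -0.09 in Wnt. Its Wnt value turned to 0.83 relative to the endothelial marker mean and was -0.50 with that mean as a covariate, both called. Fibroblast markers, which include collagens, rose in both tumours, 8 of 10 in each with 1 falling. Their array means ran from 7.68 to 8.16 in the hindbrain arrays. The Shh arrays had 8.72 to 9.90 and the Wnt arrays 8.52 to 9.83. The part of fibroblast markers in the P4ha2 values was not tested.

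The remaining targets moved by less. Car9, a cell-surface carbonic anhydrase, fell by 0.32 ± 0.09 in Wnt and 0.33 ± 0.09 in Shh, from a mean of 6.15 in hindbrain that is not far above the control probe sets. Its Shh call was lost when its 2 probe sets were averaged (-0.12, adjusted p = 0.303). Its Wnt call was lost with the endothelial covariate (-0.17, adjusted p = 0.503), and the value turned to 0.60 relative to the endothelial marker mean. Kdm3a, a histone demethylase, fell by 0.45 ± 0.08 in Wnt and 0.25 ± 0.08 in Shh, and Mxi1, a repressor in the Myc network, fell by 0.52 ± 0.09 in Wnt, while its Shh difference of -0.10 did not pass. With the endothelial covariate the Wnt value of Kdm3a was -0.12 and not called (adjusted p = 0.495). On the scale relative to that mean, Kdm3a turned to 0.47 and Mxi1 to 0.40 in Wnt. Bnip3, a mitophagy receptor, differed by -0.34 in Wnt and -0.36 in Shh and passed in neither. It passed in both after quantile normalization (-0.47, adjusted p = 0.0192, and -0.45, adjusted p = 0.0294), with the arrays shifted to 1 common median and with array weights. It also did without Shh array 2 (limma, -0.34, adjusted p = 0.0171, and -0.52, adjusted p = 0.00131). Relative to the endothelial marker mean the Wnt value of Bnip3 turned to 0.58 and was called higher. On that scale Bnip3 was also called higher in Wnt minus Shh (0.83). Ddit4, an inhibitor of mTORC1, was called in no comparison. Relative to the endothelial marker mean it was called higher in Wnt minus hindbrain (0.76) and in Wnt minus Shh (0.72).

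**Figure D3:**
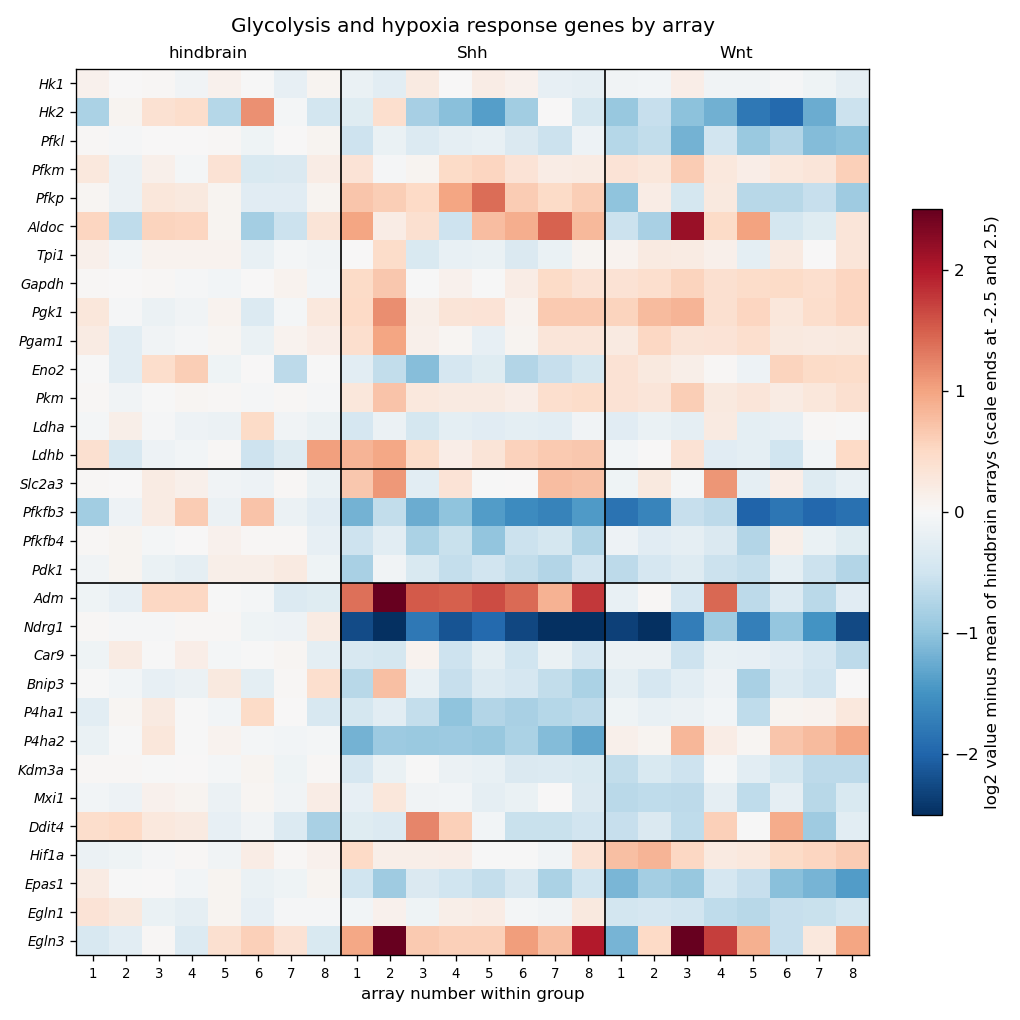
Log2 value of each gene (row) in each array (column) minus the mean of the hindbrain arrays, with the colour scale ending at -2.5 and 2.5. Lines part the 4 gene groups and the 3 sample groups. Shh array 2 stands out as the array with the highest value for 16 of 31 genes in its group.

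Of the 4 oxygen sensing genes, 1 rose and 2 fell in Wnt and 1 rose and 1 fell in Shh, although relative to the endothelial marker mean 3 rose and none fell in Wnt. Of all genes, 23.2% were called higher and 22% lower in Wnt, and 18.9% in each direction in Shh. On the relative scale 19614 of all 22180 genes were called higher in Wnt. Hif1a had a lowest, median and highest value of 9.77, 9.90 and 10.09 in hindbrain, 9.82, 10.05 and 10.41 in Shh and 10.14, 10.44 and 10.76 in Wnt. The Wnt arrays lay above all hindbrain arrays. Hif1a rose by 0.53 ± 0.09 in Wnt (adjusted p = 2.7e-05), but not when its dim second probe set was averaged in (0.21, adjusted p = 0.0816) or with the endothelial covariate (0.25, adjusted p = 0.21). In Shh its difference of 0.15 did not pass.

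Epas1, which encodes HIF-2 alpha and is characteristic of endothelium, had a lowest, median and highest value of 12.57, 12.73 and 12.93 in hindbrain, 11.85, 12.22 and 12.36 in Shh and 11.33, 11.73 and 12.31 in Wnt. Neither tumour group overlapped hindbrain. Epas1 fell by 0.94 ± 0.11 in Wnt (adjusted p = 1.11e-07) and by 0.57 ± 0.11 in Shh (adjusted p = 0.000225). Relative to the endothelial marker mean the Shh fall was 0.46 and still called, while the Wnt value was -0.02 and not called. Epas1 was lower in Wnt than in Shh by 0.37 ± 0.11, which was lost without Wnt arrays 1 and 8 (-0.26, adjusted p = 0.0609) and turned to 0.44 relative to the endothelial marker mean.

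Egln1, the main oxygen-sensing prolyl hydroxylase, had a lowest, median and highest value of 9.02, 9.23 and 9.58 in hindbrain, 9.14, 9.28 and 9.49 in Shh and 8.56, 8.73 and 8.83 in Wnt. The Wnt arrays lay below every other array. Egln1 fell by 0.53 ± 0.08 in Wnt against hindbrain (adjusted p = 4.41e-06), was called with the endothelial covariate as well (-0.60) and turned to 0.38 relative to the marker mean, and it differed by 0.05 (95% interval -0.12 to 0.21) in Shh.

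Egln3, a hydroxylase that is itself a HIF target, varied most of the 31 genes among the arrays of each tumour group. Its lowest, median and highest values were 6.38, 6.65 and 7.37 in hindbrain, 7.36, 7.63 and 9.79 in Shh and 5.62, 7.47 and 9.36 in Wnt. The Shh arrays touched the hindbrain range at its upper end, and the Wnt arrays spanned it. Egln3 rose by 1.20 ± 0.41 in Shh (limma, adjusted p = 0.0236), a call that was lost without Shh array 2 (0.94, adjusted p = 0.0588). Its Wnt difference of 0.65 had a 95% interval from -0.20 to 1.5. Relative to the endothelial marker mean the Wnt value was 1.57 and called.

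Paralogues were also set against each other within each array, where a shift common to all genes cancels. The difference between 2 probe sets carries the brightness of each probe, so only its change between groups is read. Of 10 listed pairs 7 could be measured, which gave 21 exact permutation tests over arrays (two-sided, 12870 splits each, smallest possible p 0.000155), adjusted over the 21. Epas1 minus Hif1a was 2.82 ± 0.21 (SD, n = 8) in hindbrain, 2.10 ± 0.23 in Shh and 1.34 ± 0.49 in Wnt. Each tumour group lay wholly below hindbrain, by 0.72 for Shh and 1.47 for Wnt (exact permutation test, adjusted p = 0.000816 for both), and Wnt lay below Shh by 0.75 with overlap (exact test, adjusted p = 0.00718). Scaling an array by its endothelial marker mean cancels in this difference by construction, so that scaling says nothing of endothelial content here. The pairs were not run with that mean as a covariate, and the part of endothelial content in this difference was not tested.

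Pfkp rose against Pfkl in both tumours, by 1.05 in Shh without overlap and by 0.36 in Wnt (exact permutation tests, adjusted p = 0.000816 and 0.0457), although the Wnt value did not pass after quantile normalization (0.32, adjusted p = 0.077). Ldhb rose against Ldha by 0.86 in Shh, while the Wnt value was 0.07. Pfkfb4 rose against Pfkfb3 in both, by 1.29 in Wnt and 0.66 in Shh, with Pfkfb3 the one that fell further. P4ha2 rose against P4ha1 by 0.55 in Wnt and fell against it by 0.35 in Shh, with Wnt and Shh arrays not overlapping. Egln3 rose against Egln1 by 1.19 in Wnt and 1.16 in Shh. Hk2 fell against Hk1 by 1.09 in Wnt, and the Shh value of -0.51 did not pass (exact test, adjusted p = 0.204).

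**Figure D4:**
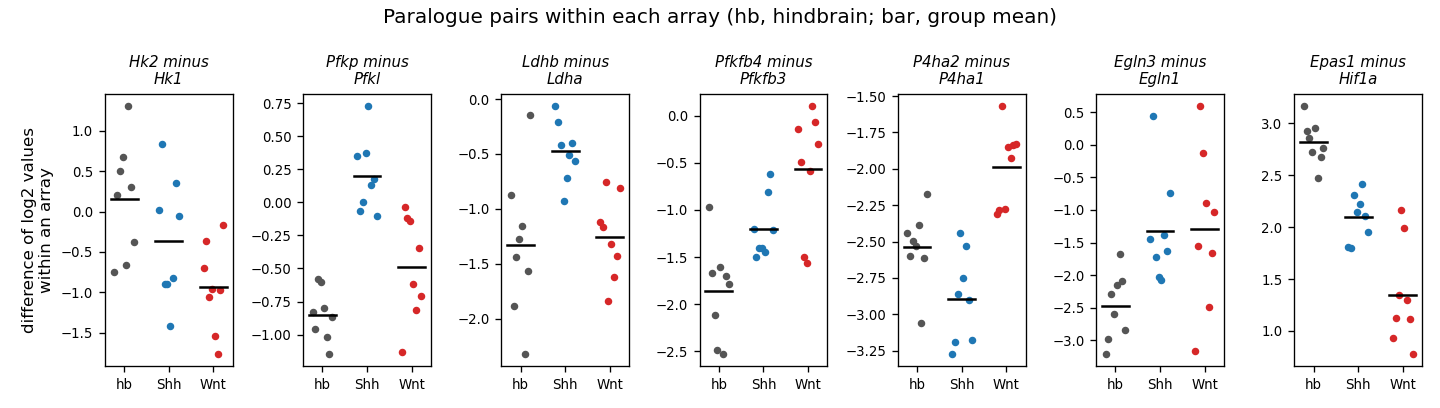
Difference of the log2 values of 2 paralogues within each array (vertical axes, each panel with its own range), by group, with bars for group means. Epas1 minus Hif1a steps down from 2.82 in hindbrain to 2.10 in Shh and 1.34 in Wnt.

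The direct comparison of the 2 tumours called fewer of these genes. In Wnt minus Shh, 6 of 31 were higher, where 18% of all genes were called higher, and 7 were lower, where 17.8% were called lower. Relative to the endothelial marker mean 23 of the 31 were higher and 2 lower, where 19283 of all 22180 genes were higher and 503 lower. The higher genes were Eno2, Pfkfb4, Ndrg1, P4ha1, P4ha2 and Hif1a. The lower genes were Pfkl, Pfkp, Ldhb, Adm, Mxi1, Epas1 and Egln1. Pfkp (-1.22 ± 0.16), P4ha2 and Egln1 (-0.58 ± 0.08) separated the arrays of the tumours without overlap, as did Eno2. With the endothelial marker mean as a covariate Pfkl, Pfkp, Ldhb, Adm, Ndrg1, P4ha2 and Egln1 were still called. Ndrg1 (0.69 ± 0.23) was lost when the 2 tumour groups were fitted alone (adjusted p = 0.0599).

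Variation among the arrays of a group was not spread evenly over these genes. Shh array 2 had the highest of the 8 Shh values for 16 of the 31 genes, or 51.6%, where it had the highest for 15% of all genes, and its median deviation from the group median was 0.28 over the 31 genes and -0.01 over all genes. Both the glycolytic enzymes (0.24) and the other genes (0.28) were high in it. Its values were 9.79 for Egln3, 9.52 for Adm, 8.53 for Bnip3 and 11.61 for Pgk1, each the highest of the group. The endothelial marker mean of this array was 11.13, toward the low end of the Shh arrays (lowest 11.09, median 11.33, highest 11.54). Its microglia and macrophage marker mean of 10.44 was the highest of the group. Wnt array 4 was high for the genes other than enzymes (median deviation 0.41) and not for the enzymes (-0.04), and it had the highest endothelial marker mean, 11.02, and the highest dissociation response mean, 11.71, of the Wnt arrays. The part of these markers in the array values was not tested.

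**Figure D5:**
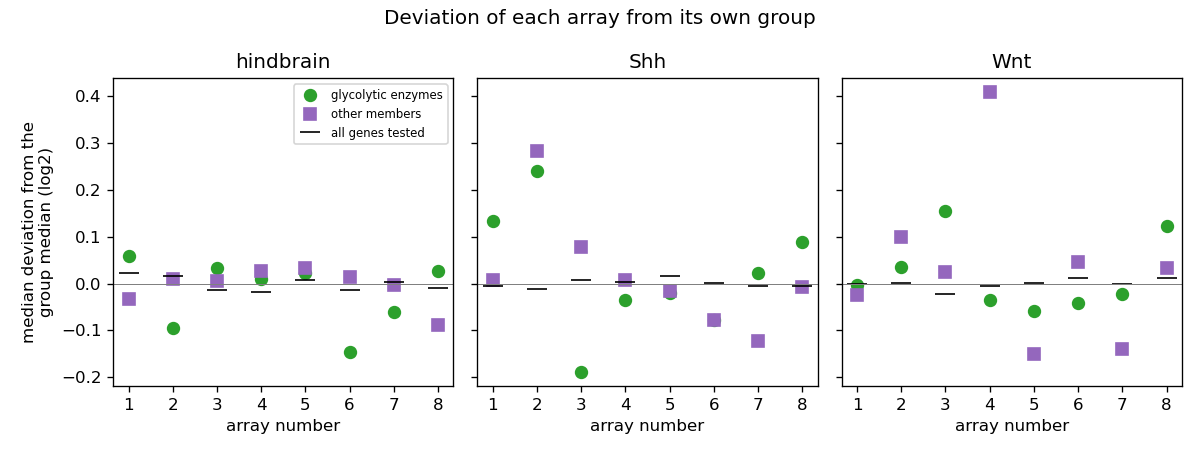
Median deviation (log2) of each array from its own group's median, over 14 glycolytic enzymes (green circles), 17 other genes (purple squares) and all genes tested (black dashes). Shh array 2 lies at 0.24 and 0.28, and Wnt array 4 at 0.41 for the other genes only, while all genes stay near 0.

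Other genes of the pathway were described from a wider list. Their counts stand beside shares of all genes of 23.2% higher and 22% lower in Wnt minus hindbrain. In Shh minus hindbrain these shares were 18.9% in each direction. Relative to the endothelial marker mean, 19614 of all 22180 genes were called higher in Wnt minus hindbrain. Of 19 further hypoxia targets measured, 6 rose and 8 fell in Wnt and 5 rose and 4 fell in Shh, although relative to the endothelial marker mean 12 rose and 3 fell in Wnt and 4 rose and 3 fell in Shh. In Shh 7 fell in place of 4 without Shh array 2, and 7 also fell with array weights, with 5 rising in both cases. With the endothelial marker mean as a covariate 4 rose and 7 fell in Wnt. Vegfa, the chief growth factor of vessels, rose by 2.08 ± 0.21 in Wnt without overlap and differed by 0.19 in Shh. Stc2, a secreted glycoprotein, rose by 1.85 in Wnt, and Lox, a collagen cross-linking enzyme, rose by 1.15. In Wnt Slc2a1, the glucose transporter of the blood-brain barrier, fell by 1.41 ± 0.19, Hmox1, the heme oxygenase, fell by 1.72, and Tfrc, the transferrin receptor of brain endothelium, fell by 3.13. Tfrc fell by 1.14 in Shh as well, and Gbe1, the glycogen branching enzyme, fell by 1.04 in Wnt and 1.13 in Shh. With the endothelial marker mean as covariate the Slc2a1 fall was 0.70 and not called (adjusted p = 0.059), and relative to that mean the Wnt value of Gbe1 was -0.13 and not called (adjusted p = 0.453). Angptl4, a secreted lipase inhibitor, rose by 1.5 ± 0.25 in Shh without overlap and had a Wnt minus Shh value of -1.55, which did not pass with that covariate (-0.57, adjusted p = 0.176). Cited2, which competes with HIF for its coactivator, fell by 1.02 in Shh. Car12, a carbonic anhydrase, was higher in Wnt than in Shh by 1.5. Its Shh mean was 5.76, and its lowest Shh value of 5.01 lay under 5.24, the 95th percentile of the ERCC control probe sets.

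Of 6 further oxygen sensing genes, 2 rose and 3 fell in Wnt and 1 rose and 1 fell in Shh, although relative to the endothelial marker mean 6 rose in Wnt, and with that mean as a covariate none fell there. Arnt2, a HIF partner typical of neurons, rose by 2.18 ± 0.22 in Wnt, and Hif3a, which encodes another alpha subunit, rose by 1.38 ± 0.34. Of 10 genes of pyruvate oxidation, 5 rose and 2 fell in Wnt and 2 rose and 3 fell in Shh, none by 1 or more, although on that relative scale 9 rose and none fell in Wnt and none was called in Shh. After quantile normalization and with the arrays shifted to 1 common median 3 rose in Wnt, and in Shh 1 rose without Shh array 2 and none with the common median. With the endothelial marker mean as a covariate 3 rose and none fell in Wnt. Of 5 pentose phosphate genes, 3 rose and 1 fell in Wnt and 3 rose and none fell in Shh, although 5 rose in Wnt and none was called in Shh on the relative scale, and 1 rose and 2 fell in Wnt after quantile normalization and with the arrays shifted to 1 common median. With that shift 1 rose in Shh. With the endothelial marker mean as a covariate none of these 5 genes rose and 1 fell in Wnt. Of 8 enzyme forms restricted to other tissues, none rose in either tumour, 1 fell in Wnt and 2 fell in Shh, although 7 rose in Wnt on the relative scale. Some of these forms lay near the floor. Pgk2 was under 5.24, the 95th percentile of the ERCC control probe sets, in every array, and Gapdhs was above it in 3 of 8 Shh arrays. With the arrays shifted to 1 common median 2 fell in Wnt and 5 in Shh, and with array weights 4 fell in Shh. The Wnt fall was Hk3, a hexokinase of myeloid cells, at -1.42 ± 0.22, and relative to the endothelial marker mean its value of -0.50 did not pass (adjusted p = 0.0857).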

How the data were processed

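RNA of the 24 sorted samples was hybridised to Affymetrix mouse arrays. The deposited values are log2 per probe set, as their range shows. Partek 6.6 is named in the submitters' processing notes without its role, and how the authors summarised and normalised the log2 values is not given in the sources used here. Of 41345 probe sets, 190 controls were left out, 23521 carried 1 symbol, 1814 several and 15820 none. Array medians ran from 5.97 to 6.18, and the number of arrays limits precision. Values were used as deposited. limma 3.58.1 in R 4.3.3 (lmFit, eBayes without trend, group as the only factor, 21 residual degrees of freedom) was fitted to 22180 genes and checked on simulated data. Tests were two-sided, with Benjamini-Hochberg adjustment over all genes and calls at an adjusted p under 0.05. SE is the moderated standard error.

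The genes and lists were chosen with earlier results of these data known. All genes of the set are named. Array values are given for those called with an absolute log2 difference of 1 or more and for Hif1a, Epas1, Egln1 and Egln3. Other pathway genes are named where called with a difference that large. Promoters are those of RefSeq (GRCm38.p6). The build of the array is not given in the sources used here.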

Additional observations from a re-analysis of the deposited data

Results flagged for a closer look

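Of 93 sets of 8 values (31 genes in 3 groups), 3 held an array whose gap to the nearest other array, as a share of the range, was above Dixon's critical value for 8 samples. Chance alone gives about 1 in 20 such sets. Slc2a3 was 7.98 in Wnt array 4 against 7.11 in the next highest array (gap 0.611 of the range). Adm was 8.41 in the same array against 7.0 (0.666). Bnip3 was 8.53 in Shh array 2 against 7.60 (0.608).

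The effect of the tumour against hindbrain differed between the models for Pfkp and P4ha2, which were called in opposite directions. The Pfkp fall in Wnt was lost without Wnt arrays 1 and 8 and turned to 0.43 relative to the endothelial marker mean. The P4ha2 rise in Wnt was not called with that mean as a covariate (0.28). By limma the Wnt minus Shh difference was -1.22 for Pfkp (adjusted p = 1.68e-06) and 1.47 for P4ha2 (adjusted p = 9.47e-10).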

How the results depend on the processing

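Quantile normalization, a filter on dim genes, array weights, a variance trend and a fit to the compared groups alone kept each count called within 1.5 times for the enzymes, for the other genes and for the 31 genes together. Some of them moved smaller groups by more: with array weights and with 2 groups alone 1 regulator was higher in Shh minus hindbrain, and the wider pathway lists changed as given beside them. Same-numbered arrays were not paired (their correlations ran from -0.146 to 0.282). With the replicate block every call of the 31 genes remained and Kdm3a joined those lower in Wnt minus Shh (-0.20, adjusted p = 0.0477), while of the 6 further oxygen sensing genes 1 was lower there in place of 2. A change of sign between values called under neither setting was not counted.

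With the arrays shifted to 1 common median, the median over all genes was -0.14 for Wnt minus hindbrain and -0.11 for Shh minus hindbrain, the share of higher genes among the called went from 51.3% to 34.9% and from 50.1% to 33.4%, and 3 enzymes were higher in Wnt minus hindbrain. Relative to the endothelial marker mean that share was 96.6% and 66.9%, and for Wnt minus Shh it went from 50.3% to 97.5%. With probe sets averaged, 1 gene other than an enzyme was higher in Wnt minus hindbrain.

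With the endothelial marker mean as a covariate, 8 of the 31 genes were called in Wnt minus hindbrain, 0 enzymes and 0 other genes being higher. Of all 22180 genes 2708 were called higher and 2389 lower there, against 5152 and 4888 without the covariate. In Wnt minus Shh 8 of the 31 were called, with 0 enzymes higher, and 2 other genes higher and 2 lower. Of all genes 2203 were called higher and 2087 lower there, against 3996 and 3950 without the covariate. Pfkp turned to 0.075 in Wnt minus hindbrain and Epas1 to 0.12 in Wnt minus Shh. The group and this mean are not independent, since Wnt and hindbrain arrays do not overlap in it.

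Relative to that mean, Wnt minus hindbrain had 12 enzymes higher and 0 lower, and 14 other genes higher and 2 lower. Shh minus hindbrain had 8 genes called, with 2 enzymes higher and 0 lower and 4 other genes lower. Wnt minus Shh had 25 called, with 9 enzymes higher and 1 lower and 14 other genes higher and 1 lower. In Wnt minus hindbrain the sign turned for Hk1 (0.85), Pfkl (0.072), Pfkp (0.43), Ldha (0.81), Ldhb (0.88), Pfkfb4 (0.66), Pdk1 (0.41), Adm (0.78), Car9 (0.60), Bnip3 (0.58), P4ha1 (0.83), Kdm3a (0.47), Mxi1 (0.40), Ddit4 (0.76) and Egln1 (0.38). In Wnt minus Shh it turned for Hk1 (0.79), Pfkl (0.27), Pkm (0.81), Ldhb (0.19), Slc2a3 (0.47), Pfkfb3 (0.53), Kdm3a (0.61), Mxi1 (0.39), Ddit4 (0.72), Epas1 (0.44) and Egln1 (0.23). These follow from the scale, which adds the fall of the markers to every gene.

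Leaving out Shh array 2 or Wnt array 4 was chosen after the data had been seen. Without Shh array 2, 1 gene other than an enzyme was higher in Shh minus hindbrain and 3 enzymes were higher in Wnt minus Shh. Single-array omission was not run for the other arrays.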
